A study of Mus musculus with 48 samples.

Results

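At circadian time 17 (CT17), in the subjective night when mice are active, jejunum in which deletion of the clock gene Bmal1 was aimed at the epithelium was compared with control jejunum. The comparison takes the 8 libraries whose names carry a genotype and CT17, 4 knockout and 4 control, out of 47 libraries in the table. The knockout animals carried the genotype written Bmal1iec-/- and the controls the floxed alleles alone, written bmal1fl/fl, so floxed Bmal1 is common to both groups. Whole jejunum, the middle stretch of the small intestine, was sampled over a 24-h cycle in constant darkness, at 6 times that run in equal steps up to CT21, the first being CT1. The labels give neither the driver of the recombinase nor the age, the sex or the diet of the mice. Nothing in them ties a library to a mouse of its own, so the p-values below rest on the spread among libraries, which may be partly technical. RNA from muscle, connective tissue, nerves and immune cells is in every library, and these cells are not the target of the deletion.

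BMAL1, the product of Arntl, pairs with CLOCK or NPAS2 and activates genes through a DNA element called the E-box. Among those genes are the period and cryptochrome repressors, which close the loop by inhibiting BMAL1, the REV-ERB repressors Nr1d1 and Nr1d2, and the activators Dbp, Tef and Hlf, which act on a second element, the D-box. REV-ERBs and their competitors, the ROR receptors, in turn set the level of Arntl, Npas2, Cry1 and Nfil3. In the small intestine the clock times the digestion and uptake of nutrients, the handling of foreign compounds and the immune defence of the mucosa.

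The 4 knockout libraries held 5708932, 6151281, 5294571 and 5422433 counts, against 5919409, 4981965, 4979248 and 4953553 counts in the 4 control libraries. On the scale of CPM (counts per M, or mega, counts of a library), 3 counts, the limit that an observed 0 allows, stood at 0.488 to 0.606. Mitochondrial genes took 4.12 to 4.78% of the counts in knockout and 4.04 to 4.42% in control. The 5 libraries of the series that stood apart from their groups, by the spread of their genes around the series median, were taken at other times. That spread, an interquartile range on the log2 scale, was 0.600 to 1.12 in those 5. At CT17 it was largest in knockout replicate 4, at 0.476, against 0.279 to 0.371 in the other CT17 libraries. Summed CPM of 10 epithelial markers was 13693 to 15220 in knockout and 12414 to 13271 in control, without overlap, and all 10 markers were measured. The sum is weighted to the most abundant markers. Taken singly, the 10 gave 0 calls, a median log2 fold change of 0.07 and 1 marker wholly higher in knockout. Markers of smooth muscle, enteric neurons and glia, fibroblasts and endothelium gave 0 calls among 30 measured genes. As 2.09% of all genes tested were called, 0 among 30 is near that share and says little about these cells. The pancreatic acinar list gave 0 calls as well, with 3 of its 6 genes (Cpa1, Pnlip and Cel) at 0 in all 8 libraries.

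Of 15646 genes tested, 327 (2.09%) differed between knockout and control at CT17 at an adjusted p under 0.05 (edgeR's quasi-likelihood test, Benjamini-Hochberg adjustment over all genes tested). Knockout jejunum was higher for 107 genes (0.684%) and lower for 220 genes (1.41%). The median change of the 327 genes was 0.98 on the log2 scale in either direction. A change of at least 2-fold was seen in 46 of the higher genes and in 113 of the lower ones. The 4 knockout values lay outside the range of the 4 control values for 101 of the 107 higher genes and 202 of the 220 lower ones, where 5.37% of all genes tested lay wholly higher and 5.48% wholly lower (10.9% in all). In bulk tissue a fall of a gene in each cell and a loss of the cells that express it cannot be told apart. The number of calls fell to 191 without knockout replicate 2, to 197 without knockout replicate 3, to 198 without knockout replicate 4 and to 206 without control replicate 3. They were 558 when the 8 CT17 libraries were fitted alone, 196 with no filter on low counts, and 835, with all 327 among them, without the 5 libraries of other times that stood apart.

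**Figure D1:**
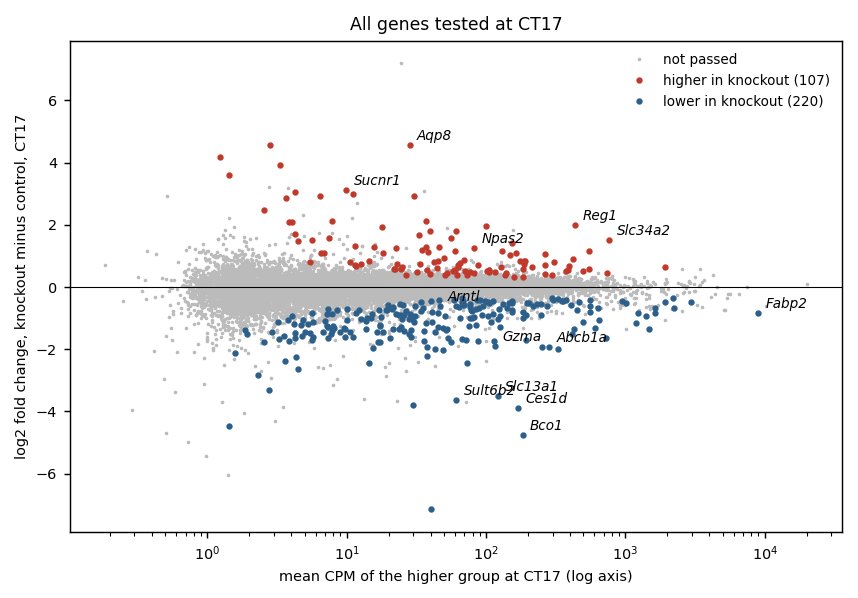
Log2 fold change of knockout over control at CT17 against the mean CPM of the higher group (log axis), 1 point a gene for 15646 genes. Genes that passed are red where higher in knockout (107) and blue where lower (220). The largest labelled falls (Bco1, Ces1d, Sult6b2, Slc13a1) lie further from 0 than any labelled rise except Aqp8.

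Arntl itself (ENSMUSG00000055116.8, chr7, 113207465 to 113314126, mm10), the gene aimed at, was lower in knockout jejunum, at 31.7, 31.4, 31.9 and 26.9 CPM in knockout libraries, against 46.0, 49.9, 41.9 and 50.05 CPM in control libraries (log2 fold change -0.62, SE 0.14, adjusted p = 0.0062). The groups did not overlap, and knockout replicate 4 was the lowest of the 8. Which exons were floxed is not given in the sources used here, so counts over the whole gene include any transcript that is left after the deletion as well as Arntl RNA of the cells that were not targeted. Over the cycle the knockout groups averaged 27.3, 31.4, 28.2, 31.2, 30.5 and 30.9 CPM at the 6 times in order from CT1 to CT21, and the control groups 75.5, 30.4, 10.4, 11.5, 47.0 and 78.4 CPM at the same times. Arntl RNA was therefore nearly level in knockout, while the control group at CT17 was above the mean of its other times (0.68, adjusted p = 3.6e-05). On the log2 scale the knockout effect was -1.46 at CT1 and 0.05 at CT5, then 1.43 at both CT9 and CT13, and -1.34 at CT21, so at CT17 the gene was checked on the side of the cycle where control levels were high.

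Of the 18 measured clock activators and repressors, 4 passed at CT17 (1 higher, 3 lower), where 2.09% of all genes did. Npas2, the partner that can stand in for CLOCK, was the 1 that rose. It had 71.4, 82.0, 86.3 and 89.3 CPM in knockout libraries, against 34.5, 37.3, 31.0 and 35.5 CPM in control libraries (log2 fold change 1.25, SE 0.16, adjusted p = 8.9e-07). Every knockout library was above every control library, by far more than either group spread. Clock, the usual partner, had 98.8 ± 3.82 CPM in knockout libraries and 106 ± 18.2 CPM in control libraries (log2 fold change -0.11, adjusted p = 0.95). Nr1d2, which encodes REV-ERB beta, fell, with 13.6, 12.5, 18.2 and 9.03 CPM in knockout libraries, against 29.6, 33.8, 46.9 and 33.2 CPM in control libraries (log2 fold change -1.42, SE 0.24, adjusted p = 1.9e-04). Per3, a member of the period family, fell as well, with 17.6, 12.5, 16.7 and 8.84 CPM in knockout libraries, against 28.5, 25.1, 33.5 and 34.3 CPM in control libraries (log2 fold change -1.12, SE 0.20, adjusted p = 3.5e-04). In both genes the highest knockout library stayed below the lowest control library. These 4 calls, Arntl's among them, held in each of 15 alternative analyses.

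None of the other members of the core loop passed at CT17. Nr1d1, which encodes REV-ERB alpha, was low in both genotypes, at 3.62, 1.57, 2.75 and 2.45 CPM in knockout libraries, against 2.48, 3.67, 6.28 and 4.57 CPM in control libraries (log2 fold change -0.69, SE 0.30, adjusted p = 0.32). The groups overlapped. Its mean effect at the other times was -2.18, adjusted p = 7.6e-18 on the log2 scale, and the test of the difference between CT17 and those times gave an adjusted p of 0.094. Per1 had 18.8 ± 7.77 CPM in knockout libraries and 21.9 ± 6.89 CPM in control libraries (log2 fold change -0.23, adjusted p = 0.87) and Per2 98.7 ± 18.6 CPM in knockout libraries and 109 ± 18.2 CPM in control libraries (log2 fold change -0.14, adjusted p = 0.93). Cry1, a repressor of BMAL1, had 57.3, 57.9, 69.2 and 45.0 CPM in knockout libraries, against 44.1, 41.0, 43.5 and 37.6 CPM in control libraries (log2 fold change 0.46, SE 0.21, adjusted p = 0.33). The knockout values were all above the control values, yet the change did not pass except when the 8 libraries were fitted alone. Cry2 had a log2 fold change of 0.33, adjusted p = 0.30, Bhlhe40 of -0.38, adjusted p = 0.20 and Rora of 0.19, adjusted p = 0.90. Ciart and Bhlhe41, at 0.564 to 2.02 CPM in all 8 libraries, were near the detection limit. Ciart lay wholly higher in knockout without passing (log2 fold change 0.87, adjusted p = 0.44), while Bhlhe41 overlapped (0.03). The mean effect on Ciart at the other times was -0.77, adjusted p = 0.0064. The test of its difference between CT17 and those times gave an adjusted p of 0.39. The kinases Csnk1d (-0.04) and Csnk1e (-0.37), which set the stability of the period proteins, did not pass.

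Among 8 genes of the clock output list, 3 fell and 5 did not pass, where 1.41% of all genes tested fell. Tef, an activator through the D-box, had 60.6, 52.1, 60.0 and 51.0 CPM in knockout libraries, against 82.3, 85.4, 104 and 81.4 CPM in control libraries (log2 fold change -0.66, SE 0.13, adjusted p = 0.0015). Wee1, a kinase that holds cells before mitosis, had 19.1, 23.7, 24.0 and 22.0 CPM in knockout libraries, against 36.4, 35.7, 36.0 and 33.8 CPM in control libraries (log2 fold change -0.68, SE 0.15, adjusted p = 0.0054). Por, which passes electrons to the cytochrome P450 enzymes, had 80.7, 84.8, 91.0 and 113 CPM in knockout libraries, against 118, 170.2, 251 and 203 CPM in control libraries (log2 fold change -1.01, SE 0.21, adjusted p = 0.0027). Knockout and control did not overlap in any of the 3. The other PAR bZIP factors were lower without passing, Dbp at 2.33 ± 0.646 CPM in knockout libraries and 3.41 ± 0.719 CPM in control libraries (log2 fold change -0.55, adjusted p = 0.45) and Hlf at 11.5 ± 1.12 CPM in knockout libraries and 14.4 ± 1.02 CPM in control libraries (log2 fold change -0.33, adjusted p = 0.60). Nfil3, which represses through the D-box, had a log2 fold change of -0.24, adjusted p = 0.79. Usp2 (-0.24) and Tsc22d3 (-0.13), the remaining members, did not pass either.

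**Figure D2:**
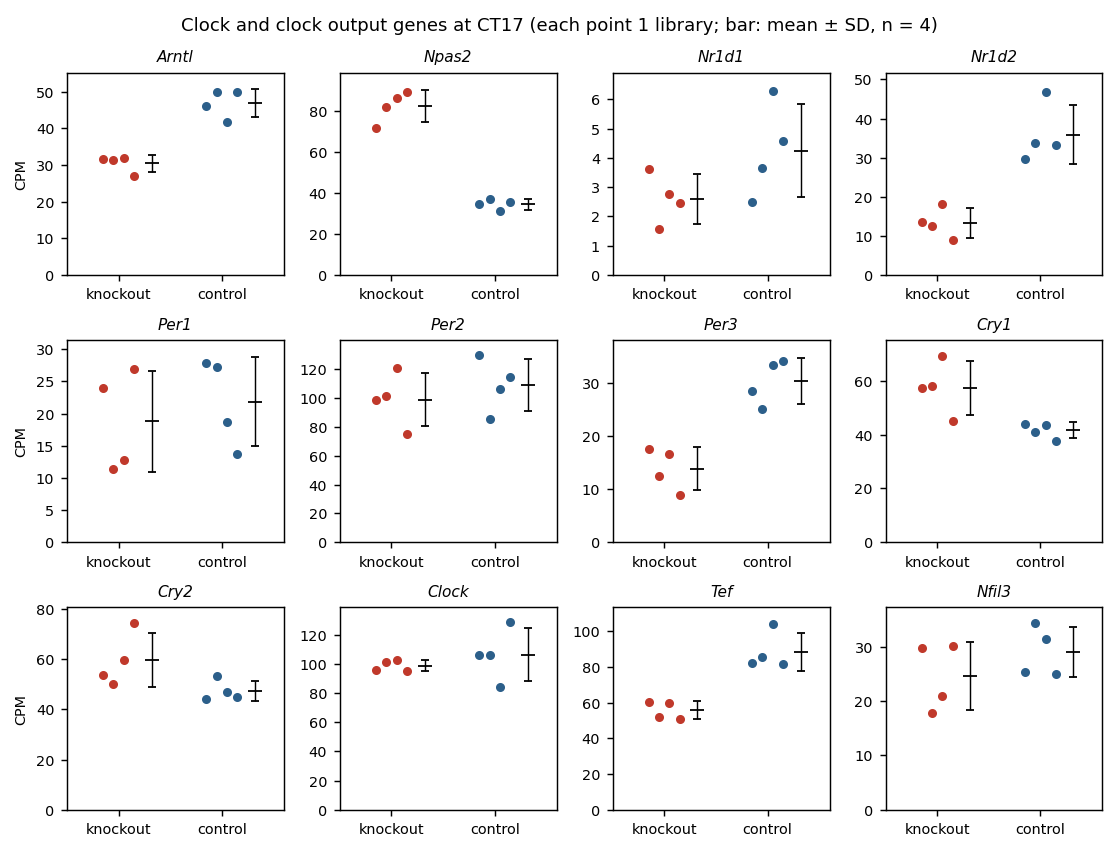
CPM (linear axis from 0) of 12 clock and clock output genes in each CT17 library, knockout (red) left of control (blue), with the mean and SD of 4 libraries as a bar beside each group. Arntl, Nr1d2, Per3 and Tef are lower and Npas2 higher in knockout with no overlap, while Per1, Per2, Nr1d1 and Nfil3 overlap.

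The start regions of Per3 and Tef, which fell together, are printed because they hold the elements named above. Each window runs from 250 bases before to 50 bases after a RefSeq start (GRCm38.p6, gene strand). Capitals mark the D-box letters TTANGTAA in Per3 (chr4:151044616-151044915, minus strand) and the E-box letters CACGTG in Tef (chr15:81802423-81802722, plus strand).
Per3: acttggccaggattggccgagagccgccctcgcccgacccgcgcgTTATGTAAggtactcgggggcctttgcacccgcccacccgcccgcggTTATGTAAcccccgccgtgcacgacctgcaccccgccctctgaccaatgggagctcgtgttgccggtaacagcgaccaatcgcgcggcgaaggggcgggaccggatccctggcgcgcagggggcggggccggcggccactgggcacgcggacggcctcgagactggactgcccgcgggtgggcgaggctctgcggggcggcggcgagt
Tef: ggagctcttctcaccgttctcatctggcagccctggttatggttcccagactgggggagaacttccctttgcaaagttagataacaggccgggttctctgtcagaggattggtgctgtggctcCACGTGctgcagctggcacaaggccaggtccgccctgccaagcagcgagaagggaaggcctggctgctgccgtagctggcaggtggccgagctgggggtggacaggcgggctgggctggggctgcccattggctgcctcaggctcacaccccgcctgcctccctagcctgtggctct
The Per3 window holds the D-box letters in 2 places, starting 205 and 158 bases before the start. The Tef window shown holds 1 E-box, 127 bases before the start. Tef has 2 windows, and the other (chr15:81811164-81811463) also holds CACGTG, 138 bases before its own start. Searched on both strands, CACGTG lay in a window of 10.1% of higher genes (9 of 89) and of 11.6% of lower genes (18 of 155). The same held for 11.3% of 10983 tested genes with a window. A gene counted if any of its windows held the letters. Counted singly, 7.15% of all 32817 windows did. The D-box letters lay in a window of 1.12% of higher genes and 3.87% of lower genes (6 of 155), against 1.88% of tested genes. Counted singly, 2.32% of all windows held them. A match is a stretch of letters, not a measured site.

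The 12 largest falls among genes with no overlap and at least 5 CPM in control were led by enzymes and a transporter of the absorptive epithelium. Bco1 (ENSMUSG00000031845.15, chr8, 117095854 to 117133720), which cleaves dietary beta-carotene to retinal, had the largest change, with 3.79, 5.33, 6.79 and 11.3 CPM in knockout libraries, against 92.1, 220.4, 314 and 104 CPM in control libraries (log2 fold change -4.76, SE 0.50, adjusted p = 4.7e-08). The highest knockout library was far below the lowest control library, and the control values spread widely among themselves, replicate 3 being the highest. Ces1d (ENSMUSG00000056973.6, chr8, 93166068 to 93197838) and Ces1g (ENSMUSG00000057074.6, chr8, 93302369 to 93337308), carboxylesterases that hydrolyse lipid esters and ester drugs, followed. Ces1d had 12.1, 12.4, 10.6 and 10.5 CPM in knockout libraries, against 132, 127, 234 and 189.8 CPM in control libraries (log2 fold change -3.90, SE 0.28, adjusted p = 5.0e-13). Ces1g had 1.89, 1.88, 2.94 and 1.88 CPM in knockout libraries, against 10.3, 12.8, 56.3 and 40.7 CPM in control libraries (log2 fold change -3.79, SE 0.49, adjusted p = 2.2e-06). The knockout values of both genes lay close together and far below control.

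Sult6b2 (ENSMUSG00000048473.15, chr6, 142785204 to 142804502), a member of the sulfotransferase family, had 3.44, 3.29, 8.99 and 3.95 CPM in knockout libraries, against 46.0, 38.7, 87.3 and 73.3 CPM in control libraries (log2 fold change -3.64, SE 0.43, adjusted p = 5.1e-07). Slc13a1 (ENSMUSG00000029700.11, chr6, 24088283 to 24168092), the sodium-coupled sulfate transporter of the brush border, had 12.1, 8.94, 12.7 and 9.03 CPM in knockout libraries, against 85.1, 116, 158 and 129 CPM in control libraries (log2 fold change -3.52, SE 0.31, adjusted p = 2.2e-10). Nothing overlapped in either gene, as the rule that chose them required, and knockout replicate 3 was the highest knockout library for Sult6b2. Nat8f5, of the Nat8 acetyltransferase family, had 11.5, 12.2, 15.8 and 13.9 CPM in knockout libraries, against 54.0, 53.0, 100.5 and 85.1 CPM in control libraries (log2 fold change -2.45, SE 0.22, adjusted p = 2.0e-10). Acox2, the peroxisomal oxidase for branched chains and bile acid intermediates, had 6.89, 5.96, 9.18 and 9.97 CPM in knockout libraries, against 20.5, 22.8, 58.2 and 48.4 CPM in control libraries (log2 fold change -2.23, SE 0.30, adjusted p = 4.0e-06). Gsta3, a glutathione transferase, had 11.4, 9.57, 12.5 and 9.40 CPM in knockout libraries, against 17.9, 22.0, 68.9 and 62.9 CPM in control libraries (log2 fold change -1.997, SE 0.32, adjusted p = 8.8e-05). Its call ended when the 8 CT17 libraries were fitted alone (adjusted p = 0.11, the highest of its 15 alternatives, whose lowest was 1.6e-07). Abcb1a, which encodes the drug efflux pump P-glycoprotein, had 75.1, 71.7, 64.4 and 87.6 CPM in knockout libraries, against 186, 282, 355 and 318 CPM in control libraries (log2 fold change -1.93, SE 0.26, adjusted p = 5.9e-06). The remaining falls of the 12 were Cox6b2, a cytochrome oxidase subunit isoform best known from testis, at 4.05 ± 1.97 CPM in knockout libraries and 15.6 ± 5.65 CPM in control libraries (log2 fold change -1.95, SE 0.40, adjusted p = 0.0024), Gzmb and Zbp1, both described with the immune genes.

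Among the control libraries, 8 of the 12 falls (Ces1d, Ces1g, Sult6b2, Slc13a1, Nat8f5, Acox2, Gsta3 and Abcb1a) had replicates 3 and 4 both above replicates 1 and 2. Over all genes tested, 17.9% had this pattern in the control libraries, and 40.5% of the 220 lower genes did (89 genes). Replicates 1 and 2 carry the lower library codes in the labels in both genotypes, and the labels do not say what the codes stand for. Within the lower codes, 2 libraries per genotype, the log2 difference was -2.39 for Ces1g, -0.91 for Gsta3, -1.70 for Acox2 and -3.37 for Ces1d. Within the higher codes it was -4.15 for Ces1g, -2.56 for Gsta3, -2.43 for Acox2 and -4.27 for Ces1d. The part of the library codes in the size of these changes was not tested.

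The windows of Bco1 (chr8:117095615-117095914, plus strand) and Ces1g (chr8:93337160-93337459, minus strand), are given from RefSeq (GRCm38.p6) because they hold the repeat and the D-box. Nat8f5, the other of the 12 falls with any motif, holds 1 single hexamer. Capitals mark, in Bco1, the nuclear receptor hexamer AGGTCA repeated with 1 base between, read here on the opposite strand, and in Ces1g the D-box letters.
Bco1: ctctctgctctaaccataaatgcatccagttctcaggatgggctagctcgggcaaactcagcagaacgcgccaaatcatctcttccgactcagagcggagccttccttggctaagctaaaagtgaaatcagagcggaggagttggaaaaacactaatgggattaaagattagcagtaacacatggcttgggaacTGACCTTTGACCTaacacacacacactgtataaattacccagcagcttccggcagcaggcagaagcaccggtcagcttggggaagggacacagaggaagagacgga
Ces1g: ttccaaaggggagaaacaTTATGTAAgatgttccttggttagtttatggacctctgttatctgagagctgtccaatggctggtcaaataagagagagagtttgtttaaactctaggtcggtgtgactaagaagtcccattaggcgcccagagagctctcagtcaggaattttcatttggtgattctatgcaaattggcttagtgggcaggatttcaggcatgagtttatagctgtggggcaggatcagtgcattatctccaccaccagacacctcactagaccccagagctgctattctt
The repeat spans 56 to 44 bases before the Bco1 start and the Ces1g D-box starts 232 bases before the start. The repeat was found in 0.0637% of tested genes with a window (7 of 10983) and in 13 of all 32817 windows. The single hexamer, which the repeat contains as a pair, lay in a window of 23.6% of higher genes and 19.4% of lower genes. It lay in a window of 15.3% of tested genes and, counted singly, in 16.3% of all windows. Of the 24 largest rises and falls, 21 had a window and 6 held any of the 4 motifs.

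Several of the 12 largest rises, chosen by the same rule, came from genes near the detection limit in control jejunum. Aqp8 (ENSMUSG00000030762.11, chr7, 123462291 to 123468004), a water and peroxide channel typical of the colon, had 26.0, 11.1, 45.3 and 31.0 CPM in knockout libraries, against 0.663, 1.223, 0.628 and 2.28 CPM in control libraries (log2 fold change 4.56, SE 0.56, adjusted p = 8.9e-07). The 4 control libraries held 24 counts of it in all, the 4 knockout libraries 634. Sucnr1, the succinate receptor that tuft cells use to sense microbes, had 7.06, 9.57, 10.6 and 12.6 CPM in knockout libraries, against 0.497, 1.02, 1.47 and 1.66 CPM in control libraries (log2 fold change 3.11, SE 0.37, adjusted p = 1.8e-07). The other measured members of the tuft cell list did not pass, among them the channel Trpm5, at 20.8 ± 2.99 CPM in knockout libraries and 12.5 ± 2.42 CPM in control libraries (log2 fold change 0.73, adjusted p = 0.066). Adad2, an adenosine deaminase domain protein known from male germ cells, had 7.75, 3.61, 4.59 and 9.78 CPM in knockout libraries, against 0.828, 0.815, 0.837 and 0.831 CPM in control libraries (log2 fold change 2.92, SE 0.37, adjusted p = 8.9e-07), on 145 counts in knockout and 17 in control. Lect2, a secreted protein best known from the liver, had 9.98, 6.9, 5.51 and 9.22 CPM in knockout libraries, against 0.497, 2.45, 2.72 and 1.66 CPM in control libraries (log2 fold change 2.13, SE 0.44, adjusted p = 0.0027). That none of these 4 genes overlapped between the groups follows from the rule that chose them.

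Reg1, a secreted lectin of the regenerating family, was the most abundant of the 12, with 350.3, 355, 527 and 522 CPM in knockout libraries, against 127, 119, 81.0 and 113 CPM in control libraries (log2 fold change 1.99, SE 0.32, adjusted p = 1.0e-04). Knockout replicates 3 and 4 were above knockout replicates 1 and 2, and all were above control. Tmigd1, an adhesion protein of the brush border, had 68.3, 60.4, 55.6 and 58.3 CPM in knockout libraries, against 16.6, 19.0, 12.6 and 21.8 CPM in control libraries (log2 fold change 1.80, SE 0.31, adjusted p = 2.9e-04). Mroh7 had 26.9, 45.2, 43.0 and 43.1 CPM in knockout libraries, against 4.47, 10.8, 15.5 and 15.2 CPM in control libraries (log2 fold change 1.80, SE 0.31, adjusted p = 2.7e-04). Acta1, skeletal muscle actin, had 33.9, 16.3, 10.6 and 11.3 CPM in knockout libraries, against 4.80, 6.12, 4.397 and 3.53 CPM in control libraries (log2 fold change 1.93, SE 0.40, adjusted p = 0.0026), with knockout replicate 1 at 33.9 CPM above the other knockout libraries. Cyp2c55, a cytochrome P450 of the intestine and liver, had 84.0, 110.4, 80.4 and 123 CPM in knockout libraries, against 6.29, 14.1, 48.2 and 34.5 CPM in control libraries (log2 fold change 1.96, SE 0.45, adjusted p = 0.012). Its groups did not overlap, as the rule that chose the 12 required. Its call ended without control replicate 1 (log2 fold change 1.62), without control replicate 2 (1.76) and when the 8 CT17 libraries were fitted alone.

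The window of Aqp8 (chr7:123462044-123462343, plus strand, RefSeq, GRCm38.p6), the largest rise, is shown because it holds the E-box letters, in capitals, 75 bases before the start.
Aqp8: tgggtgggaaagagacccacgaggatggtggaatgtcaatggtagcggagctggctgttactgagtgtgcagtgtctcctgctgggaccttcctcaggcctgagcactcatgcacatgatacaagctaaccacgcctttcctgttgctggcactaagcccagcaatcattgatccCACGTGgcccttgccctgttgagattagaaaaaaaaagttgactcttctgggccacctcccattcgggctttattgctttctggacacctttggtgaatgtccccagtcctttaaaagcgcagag
Adad2 was the other gene of the 24 with an E-box in its window, which makes 2 of the 21 with a window, where 11.3% of tested genes with a window held one.

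Barrier genes of the small proline-rich family rose together. Of 18 measured genes of the tight junction and barrier list, 5 rose and 0 fell, where 0.684% of all genes tested rose. Sprr2a1 had 9.47, 11.8, 7.53 and 15.4 CPM in knockout libraries, against 0.166, 1.43, 0.837 and 3.32 CPM in control libraries (log2 fold change 2.97, SE 0.48, adjusted p = 8.8e-05). Sprr2a3 had 36.3, 22.1, 24.6 and 38.4 CPM in knockout libraries, against 1.49, 5.71, 1.88 and 7.06 CPM in control libraries (log2 fold change 2.93, SE 0.54, adjusted p = 9.1e-04) and Sprr2a2 33.2, 42.2, 34.0 and 38.9 CPM in knockout libraries, against 3.48, 6.32, 5.65 and 18.9 CPM in control libraries (log2 fold change 2.13, SE 0.34, adjusted p = 8.8e-05). Control replicate 4 was the highest control library in each of the 3, and without it the fold changes of Sprr2a1 and Sprr2a2 grew by over 1.5 times. These genes are near-identical copies and the annotated bodies of Sprr2a1 and Sprr2a2 overlap, so how reads were divided among them is uncertain. The call of Sprr2a2 ended when the 8 libraries were fitted alone. Sprr1a, a related cornified envelope protein, had 2.54 ± 0.609 CPM in knockout libraries and 0.445 ± 0.362 CPM in control libraries (log2 fold change 2.48, SE 0.62, adjusted p = 0.019), with 59 counts in knockout and 9 in control over 4 libraries each. Its call ended without knockout replicate 2 and without control replicates 1 or 4. Cldn8, a sealing claudin that is typical of the distal gut, had 3.79, 4.08, 2.94 and 3.95 CPM in knockout libraries, against 0.166, 0.612, 0.837 and 0.415 CPM in control libraries (log2 fold change 2.86, SE 0.49, adjusted p = 2.6e-04). The other claudins, occludin and the zonula occludens genes of the list did not pass, and the median of the list was 0.03 on the log2 scale.

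**Figure D3:**
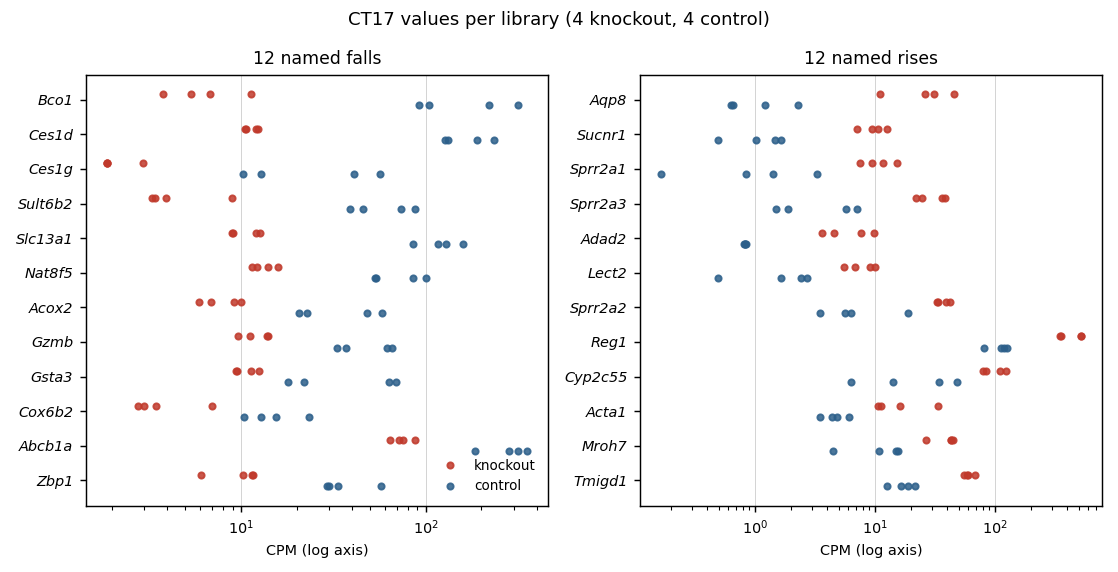
CPM (log axis) of the 12 named falls (left) and 12 named rises (right) in each CT17 library, knockout red and control blue. The genes were chosen for groups that do not overlap and ranked by fold change, and several rises (Aqp8, Sucnr1, Sprr2a1, Adad2, Lect2) have control values near the detection limit.

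Drug and lipid handling genes split in direction. Of 32 measured genes of xenobiotic metabolism and efflux, 2 rose, 3 fell and 27 did not pass, with a list median of -0.28. Of all genes tested, 0.684% rose and 1.41% fell. Beside Cyp2c55, the transporter Abcg2, which pumps urate and drugs into the lumen, rose, with 221, 211, 198 and 224 CPM in knockout libraries, against 120.2, 138, 142 and 144 CPM in control libraries (log2 fold change 0.65, SE 0.11, adjusted p = 1.6e-04). Cyp2b10, a P450 of the family driven by the receptor CAR, fell, with 271, 310.3, 323 and 327 CPM in knockout libraries, against 488, 538, 785 and 766 CPM in control libraries (log2 fold change -1.06, SE 0.21, adjusted p = 0.0021). Abcb1a and Por, given above, were the other falls. The 2 apical efflux pumps Abcb1a and Abcg2 thus passed in opposite directions, each without overlap and each in all 15 alternatives. In the retinoid list of 10 measured genes, Bco1 fell and Lrat rose. Lrat, which stores retinol as retinyl ester, had 84.4, 79.5, 103 and 81.3 CPM in knockout libraries, against 61.8, 47.9, 46.9 and 54.8 CPM in control libraries (log2 fold change 0.72, SE 0.19, adjusted p = 0.036), and its call ended without any 1 of 7 of the CT17 libraries (all but control replicate 1). Isx, the repressor of Bco1 that responds to retinoic acid, had 151, 194, 201 and 214 CPM in knockout libraries, against 142, 105, 132 and 97.6 CPM in control libraries (log2 fold change 0.67, SE 0.21, adjusted p = 0.088), without overlap but without passing.

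Mineral and water transport showed a similar split. Of 18 measured genes, Slc34a2 and Aqp8 rose, Slc13a1 fell and 15 did not pass, where 0.684% of all genes tested rose and 1.41% fell. Slc34a2 (ENSMUSG00000029188.14, chr5, 53038081 to 53071664), a sodium-coupled phosphate transporter of the brush border, had 910.4, 755, 778 and 625 CPM in knockout libraries, against 200.1, 341, 242 and 291 CPM in control libraries (log2 fold change 1.51, SE 0.27, adjusted p = 3.8e-04). Its knockout mean was above control at every time, at 815, 1144, 906, 642, 767 and 868 CPM in order from CT1 to CT21, against 516, 326, 42.3, 15.5, 269 and 400.1 CPM in control. Among 11 iron and calcium genes, Fth1, the heavy chain of ferritin, rose, with 1932 ± 173 CPM in knockout libraries and 1251 ± 118 CPM in control libraries (log2 fold change 0.63, SE 0.17, adjusted p = 0.038). Its call ended without any 1 of 7 of the CT17 libraries (all but knockout replicate 3) and under upper quartile scaling. No bile acid gene passed among 6, the nearest being Slc51a, a subunit of the basolateral bile acid exporter, at 156 ± 24.8 CPM in knockout libraries and 95.2 ± 14.6 CPM in control libraries (log2 fold change 0.72, adjusted p = 0.10). Slc51a did pass with the 8 libraries alone and without the 5 libraries that stood apart. The ileal genes Fabp6 and Fgf15 were below the filter on low counts.

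The genes of nutrient uptake mostly did not pass. Of 24 measured genes of fat absorption and lipoproteins, 1 fell and 0 rose, where 1.41% of all genes tested fell. Below 0 were 19 of the 24, and 8 lay wholly lower, where 5.48% of all genes tested did. The summed CPM of the list was 31220 to 35364 in knockout and 38620 to 47630 in control. Fabp2, the intestinal fatty acid binding protein, was the member that fell, with 4779, 4942, 5085 and 5067 CPM in knockout libraries, against 6989.7, 8019, 10968 and 9822 CPM in control libraries (log2 fold change -0.85, SE 0.18, adjusted p = 0.0037). The knockout libraries were close together and all below the control libraries, of which replicates 3 and 4 were the highest. Apoa4, an apolipoprotein of chylomicrons, had 3127 ± 546 CPM in knockout libraries and 5172 ± 817 CPM in control libraries (log2 fold change -0.73, adjusted p = 0.13), and Dgat2, which makes triglyceride, 329 ± 42.6 CPM in knockout libraries and 503 ± 73.2 CPM in control libraries (log2 fold change -0.62, adjusted p = 0.077). The list's calls were 8, all lower, with the 8 libraries alone and 9, all lower, without the 5 libraries that stood apart. In the list of fatty acid oxidation and PPAR alpha targets Angptl4, an inhibitor of lipoprotein lipase, had 119, 179.9, 219.5 and 104 CPM in knockout libraries, against 52.8, 25.5, 54.0 and 41.5 CPM in control libraries (log2 fold change 1.84, SE 0.53, adjusted p = 0.062), without overlap. None of 15 genes of sugar handling passed, Mgam having 2219 ± 376 CPM in knockout libraries and 3276 ± 472 CPM in control libraries (log2 fold change -0.56, adjusted p = 0.11) and G6pc 161 ± 20.5 CPM in knockout libraries and 108 ± 19.5 CPM in control libraries (log2 fold change 0.57, adjusted p = 0.28). With the 8 libraries alone both Mgam and G6pc passed, and Mgam also passed without the 5 libraries that stood apart. None of 27 genes of sterol and fatty acid synthesis passed.

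Genes of T cells and of intraepithelial lymphocytes, the T cells that lie between the epithelial cells, were lower in knockout jejunum. As whole jejunum was sampled, the layer in which these cells lay was not tested. Of 13 measured markers, 11 fell, 0 rose and all 13 were below 0, where 1.41% of all genes tested fell. The list median was -1.44 at CT17, and 12 of the 13 lay wholly lower, where 5.48% of all genes tested did. Summed CPM of the list was 92.2 to 129 in knockout and 226 to 468 in control. Gzma and Gzmb encode granzymes, the killing proteases of these cells. Gzma had 38.05, 25.6, 29.7 and 30.3 CPM in knockout libraries, against 156, 100.5, 124 and 82.7 CPM in control libraries (log2 fold change -1.91, SE 0.35, adjusted p = 7.4e-04), and Gzmb had 13.9, 11.1, 13.8 and 9.59 CPM in knockout libraries, against 65.4, 33.0, 61.6 and 37.0 CPM in control libraries (log2 fold change -2.02, SE 0.36, adjusted p = 4.9e-04). Itgae, the integrin chain that anchors the cells to the epithelium, had 13.6, 8.15, 10.5 and 6.58 CPM in knockout libraries, against 39.9, 23.6, 19.3 and 20.8 CPM in control libraries (log2 fold change -1.42, SE 0.26, adjusted p = 6.5e-04). Cd8a, the coreceptor, had 13.6, 6.9, 7.89 and 9.59 CPM in knockout libraries, against 41.9, 27.3, 28.3 and 17.4 CPM in control libraries (log2 fold change -1.60, SE 0.31, adjusted p = 0.0012). In Itgae and Cd8a control replicate 1 was the highest, and the calls of these 4 genes held in all 15 alternatives. The chemokine Ccl5 (log2 fold change -1.75, adjusted p = 0.011), the receptor chains Cd3d (-1.71, adjusted p = 0.0096), Cd3e (-1.25, adjusted p = 0.035) and Cd3g (-1.44, adjusted p = 0.018), and Cd7 (-1.22, adjusted p = 0.027), Klrd1 (-1.31, adjusted p = 0.025) and Nkg7 (-1.43, adjusted p = 0.038) were the other falls. Cd160 (-0.92, adjusted p = 0.050) and Cd8b1 (-1.37, adjusted p = 0.48) did not pass. The list's 11 calls became 4 without control replicate 1, 5 without knockout replicate 3 and 6 without knockout replicate 2. None of 10 markers of B and plasma cells passed, although all 10 were below 0 with a median of -1.11, 2 of them without overlap. Jchain, the joining chain of secreted antibodies, had 545, 256, 511 and 377 CPM in knockout libraries, against 776, 754, 527 and 633 CPM in control libraries (log2 fold change -0.67, SE 0.26, adjusted p = 0.24), and Pou2af1, a B cell coactivator, had 5.57 ± 1.218 CPM in knockout libraries and 10.3 ± 2.02 CPM in control libraries (log2 fold change -0.89, adjusted p = 0.14). Pou2af1 passed with the 8 libraries alone. Myeloid and mast cell markers gave 0 calls among 11, with a median of -0.16.

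The interferon response and MHC class I list moved the same way. Of its 30 genes, all measured, 9 fell, 0 rose, all 30 were below 0 and 19 lay wholly lower, where 1.41% of all genes tested fell and 5.48% lay wholly lower, with a median of -0.68 where the median of all genes tested was 0.01. Irf1, a transcription factor of the response, had 184, 155, 163 and 175 CPM in knockout libraries, against 252, 259, 262 and 215 CPM in control libraries (log2 fold change -0.55, SE 0.12, adjusted p = 0.0056). B2m, the light chain of MHC class I, had 1491, 1322, 1331 and 1381 CPM in knockout libraries, against 1925, 1958, 1879 and 1978 CPM in control libraries (log2 fold change -0.49, SE 0.12, adjusted p = 0.013). Zbp1, a sensor of Z-form nucleic acid, had 11.5, 10.2, 6.06 and 11.7 CPM in knockout libraries, against 57.3, 33.6, 29.1 and 29.9 CPM in control libraries (log2 fold change -1.93, SE 0.38, adjusted p = 0.0020). Control replicate 1 was far above the other control libraries for Zbp1. Oasl2, an antiviral effector, had 48.0, 58.5, 43.7 and 59.4 CPM in knockout libraries, against 124, 100.3, 138 and 144 CPM in control libraries (log2 fold change -1.27, SE 0.32, adjusted p = 0.022). Ifit1 (log2 fold change -1.73, adjusted p = 0.024), Oas1a (-1.03, adjusted p = 0.049), the GTPase Igtp (-1.66, adjusted p = 0.032), the class I activator Nlrc5 (-1.65, adjusted p = 0.027) and the peptide pump Tap1 (-0.95, adjusted p = 0.045) were the other falls. Only the calls of Irf1 and Zbp1 held in all 15 alternatives. The list's 9 calls became 3 without knockout replicate 1, 2 without knockout replicate 2, 3 without knockout replicate 3, 4 without knockout replicate 4, 5 without control replicate 1, 4 without control replicate 3 and 5 without control replicate 4, with every call lower in knockout. It was 2 with no filter on low counts, 17 with the 8 libraries alone and 14 without the 5 libraries that stood apart.

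MHC class II genes, which epithelial and antigen-presenting cells use to show peptides to helper T cells, gave 5 falls and 0 rises among 9 measured, where 1.41% of all genes tested fell, with a median of -1.33. Ctss, a protease that trims the invariant chain, had 165, 151, 142 and 178 CPM in knockout libraries, against 225, 226, 237 and 245 CPM in control libraries (log2 fold change -0.55, SE 0.09, adjusted p = 2.3e-04) and its call held in all 15 alternatives. H2-Ab1 had 158, 121, 144 and 163 CPM in knockout libraries, against 658, 444, 289.8 and 268 CPM in control libraries (log2 fold change -1.51, SE 0.38, adjusted p = 0.023). The knockout libraries lay between 121 and 163 CPM, while the control libraries ran from 268 to 658 CPM with replicate 1 the highest. H2-Aa had 168 ± 9.09 CPM in knockout libraries and 427 ± 264 CPM in control libraries (log2 fold change -1.35, adjusted p = 0.047) and H2-DMa 15.7 ± 2.50 CPM in knockout libraries and 42.7 ± 19.8 CPM in control libraries (log2 fold change -1.45, adjusted p = 0.032). Ciita, the master activator of the class, had 26.2, 15.4, 19.6 and 16.6 CPM in knockout libraries, against 83.5, 38.1, 34.8 and 38.6 CPM in control libraries (log2 fold change -1.33, SE 0.36, adjusted p = 0.041), and without control replicate 1 its log2 change was -0.94 and its call ended. Cd74, the invariant chain, had 398 ± 31.8 CPM in knockout libraries and 1003 ± 526 CPM in control libraries without passing (log2 fold change -1.33, adjusted p = 0.066). The list's 5 calls became 2 without knockout replicate 1, 1 without any of knockout replicates 2, 3 and 4, 1 without control replicate 1 and 3 without control replicate 2. With no filter it was 1, with the 8 libraries alone 3, and by DESeq2 8. The part that the lower T cell markers have in the interferon, class I and class II values was not tested.

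Of the remaining lists, antimicrobial and mucosal defence genes gave 1 rise among 17 measured, Reg3a, a bactericidal lectin, at 440.4, 641, 609.7 and 491 CPM in knockout libraries, against 127, 195, 355 and 299.7 CPM in control libraries (log2 fold change 1.16, SE 0.30, adjusted p = 0.025). That call ended without knockout replicates 2 or 3, without control replicates 1 or 2, and with the 8 libraries alone. Among 24 genes of endoplasmic reticulum stress, Herpud1, of the degradation machinery, fell, with 94.0, 74.2, 90.1 and 105 CPM in knockout libraries, against 138, 141, 133 and 119 CPM in control libraries (log2 fold change -0.55, SE 0.14, adjusted p = 0.017), and its call ended without knockout replicates 2 or 3 and without control replicate 2. Heat shock and cold-inducible genes (20 measured), glucocorticoid-responsive genes (14) and markers of stem cells (12), goblet cells (11) and enteroendocrine cells (15) gave 0 calls. In the cell cycle list Wee1 was the 1 call among 27. Of all genes tested 2.09% passed, 0.684% higher and 1.41% lower, so 0 or 1 call in lists of this size says little. Stem cell markers had a median of 0.10, and 3 of the 12 lay wholly higher in knockout, where 5.37% of all genes tested did. Axin2, a Wnt target, had 50.4 ± 2.21 CPM in knockout libraries and 40.5 ± 3.72 CPM in control libraries (log2 fold change 0.31, adjusted p = 0.18). Without the 5 libraries that stood apart Axin2 passed. Summed over the 18 lists with 0 calls by edgeR, 21 of 196 measured entries had an unadjusted p under 0.05, and DESeq2 called 0. A gene in several lists counts in each. The share of all genes tested under that unadjusted p is not given here, so the 21 cannot be read as many or few. Single members of these lists passed in other alternatives, as given for Slc51a, Mgam, G6pc, Pou2af1 and Axin2.

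**Figure D4:**
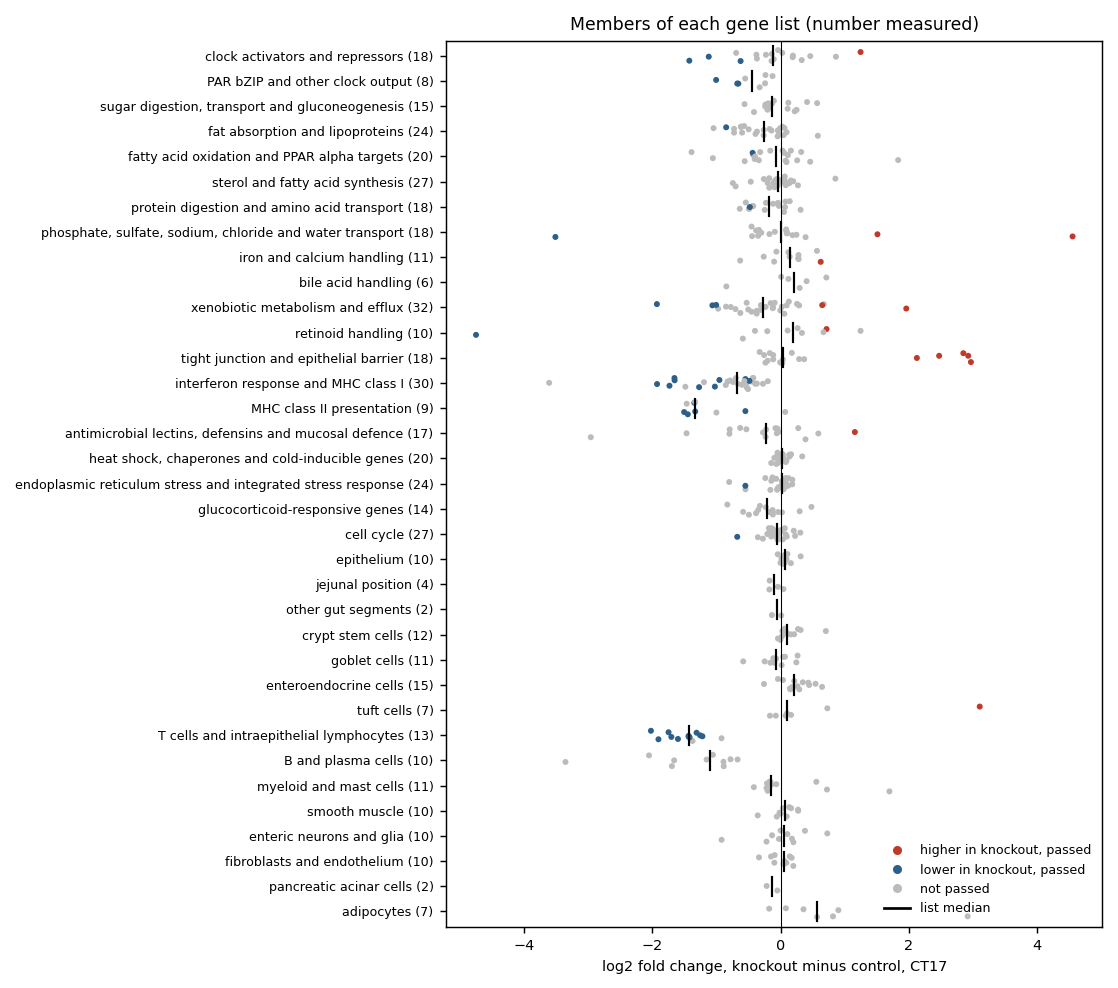
Log2 fold change at CT17 of every measured member of 35 gene lists (number measured in brackets), red where higher in knockout and passed, blue where lower and passed, grey where not passed, with the list median as a black bar. All measured members of the interferon (30), T cell (13), B and plasma cell (10), clock output (8) and pancreatic acinar (2) lists lie left of 0, as do 8 of 9 of the MHC class II list.

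At the other 5 times, whose 39 libraries are not among the 8, the genes called at CT17 mostly had effects of the same sign. Of the 107 higher genes, 106 were above 0 in the mean effect of the other times and 96 passed there (89.7%), where 10.9% of all genes tested passed in that direction. Of the 220 lower genes, 213 were below 0 and 174 passed (79.1%), against 9.8% of all genes. None passed in the opposite direction. The median of the lower genes was -1.03 at CT17 and -0.52 at the other times, and that of the higher genes 0.83 and 0.69. Against single times, 81 of the 107 higher genes (75.7%) were also called higher at CT13, which is 25.4% of the 319 genes called higher there (2.04% of all genes tested). At CT5 the same overlap was 40 genes (37.4%, and 51.3% of the 78 genes called, which are 0.499% of all). For the lower genes it was 87 genes at CT13 (39.5%, and 41.2% of the 211 genes called, which are 1.35% of all) and 26 at CT5 (11.8%, and 49.1% of 53 genes, which are 0.339% of all). At CT9 the overlap was 69 higher genes (64.5%, and 29.6% of the 233 called higher among 15646 tested). It was 83 lower genes there (37.7%, and 25.2% of the 330 called lower). The libraries that stood apart were taken at CT1 and CT21.

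The size of the knockout effect at CT17 differed from the mean effect at the other 5 times for 8 genes (0.0511% of those tested), all more negative at CT17. DESeq2 called 16, of which 2 were higher, and 769 genes had an unadjusted p under 0.05. Described here are 7 of them, Sult6b2, Ces1d, Slc13a1, Nat8f5 and Kyat1, which also passed at CT17 itself, and Slc6a3 and Nfil3, which did not. Kyat1, which transaminates kynurenine and other amino acids, had 27.5, 36.5, 30.7 and 41.6 CPM in knockout libraries, against 88.9, 139.8, 105 and 121 CPM in control libraries (log2 fold change -1.74, SE 0.17, adjusted p = 1.2e-09). In each of the 7 the control group at CT17 was above the mean of its other times, while the knockout group did not pass against its own other times. These within-genotype values share the CT17 libraries with the difference itself.

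Nfil3 averaged 31.6, 31.0, 20.6, 12.5, 24.6 and 25.9 CPM in knockout in order from CT1 to CT21, against 35.2, 6.79, 4.79, 5.04, 29.0 and 35.4 CPM in control (difference -1.23, SE 0.24, adjusted p = 0.021). Its control mean was high at CT17, CT21 and CT1, near or above the knockout mean, and low at CT5, CT9 and CT13. Sult6b2 averaged 5.56, 3.56, 5.87, 14.4, 4.92 and 6.48 CPM in knockout, against 1.46, 3.64, 22.1, 117, 61.3 and 6.25 CPM in control (difference -3.03, SE 0.48, adjusted p = 9.9e-04). Ces1d averaged 15.2, 13.7, 16.7, 13.2, 11.4 and 12.5 CPM in knockout, against 38.4, 23.6, 21.3, 122, 171 and 77.8 CPM in control (difference -2.23, SE 0.29, adjusted p = 1.6e-05), with the highest control mean at CT17. Slc13a1 (difference -1.72, SE 0.33, adjusted p = 0.020), Nat8f5 (difference -1.21, SE 0.24, adjusted p = 0.021) and Kyat1 (difference -0.88, SE 0.18, adjusted p = 0.037) had knockout means below the control means at CT17 as well. The contrast was not confined to CT17. Slc13a1 averaged 8.25, 12.3, 16.7, 13.7, 10.7 and 13.1 CPM in knockout in order from CT1 to CT21, against 16, 19.5, 78.8, 152, 122 and 40.8 CPM in control, so the control mean was higher at CT13 than at CT17. Nat8f5 averaged 17.2, 10.6, 11.5, 10.9, 13.4 and 12.1 CPM in knockout, against 12.5, 17.6, 49.6, 73.9, 73.2 and 25.5 CPM in control, with control means close together at CT13 and CT17. Kyat1 averaged 29.5, 25.3, 24.8, 24.9, 34.1 and 30.2 CPM in knockout, against 35.5, 34.2, 41.0, 59.9, 114 and 92.2 CPM in control, and CT21 had the next highest control mean after CT17. Slc6a3, the dopamine transporter, had 4.48, 2.20, 3.49 and 4.51 CPM in knockout libraries, against 4.14, 3.87, 7.54 and 7.89 CPM in control libraries at CT17 (difference -1.55, SE 0.31, adjusted p = 0.028), in this case with overlap and at low counts.

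The calls of Sult6b2 and Ces1d held in all 14 alternatives of this comparison. That of Kyat1 ended without any 1 of knockout replicates 1, 2 and 3 or control replicates 2, 3 and 4, that of Nat8f5 without knockout replicates 1 or 2 or control replicates 3 or 4, and that of Nfil3 without knockout replicates 2 or 3 or control replicates 2 or 3. Slc6a3 lost its call without knockout replicates 2 or 3 or control replicates 3 or 4, and Slc13a1 without knockout replicates 2 or 4 or control replicates 3 or 4. The count of 8 became 3 without knockout replicate 2, 5 without knockout replicate 3, 4 without control replicate 3, 4 without control replicate 4 and 18 without control replicate 1.

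**Figure D5:**
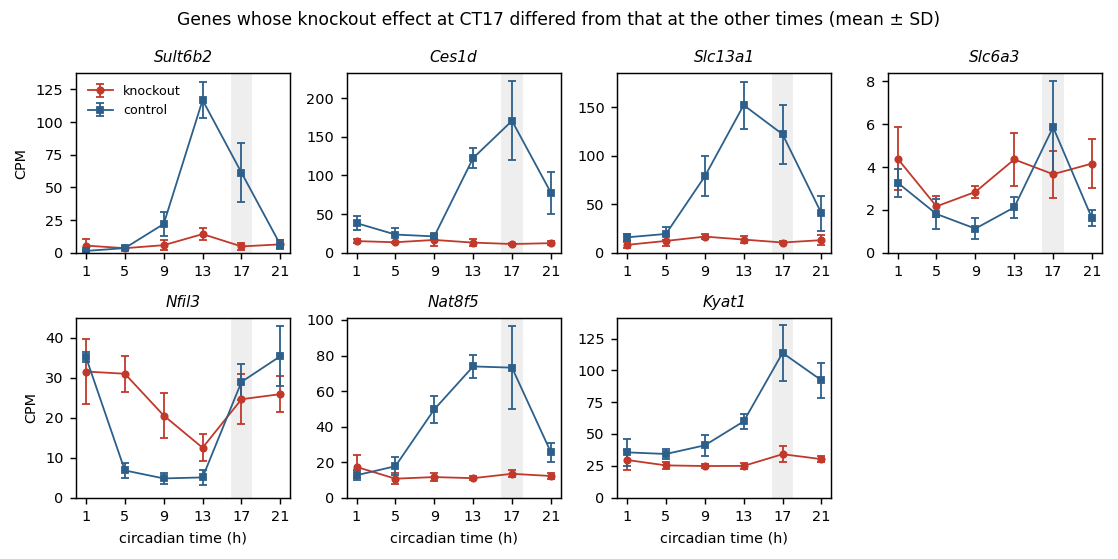
Mean CPM ± SD of the 7 genes over circadian time (h), knockout red circles and control blue squares, 4 libraries a point except 3 for knockout at CT9, with CT17 shaded. Control means change strongly over the cycle, whereas knockout means stay nearly level for Ces1d, Slc13a1, Nat8f5 and Kyat1.

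Within each genotype, CT17 was set against the mean of that genotype's other 5 times. In knockout 56 genes (0.358%) passed, 26 higher (0.166%) and 30 lower (0.192%) at CT17. In control 340 genes (2.17%) passed, 266 higher (1.7%) and 74 lower (0.473%). The knockout count became 24, 11 and 9 without knockout replicates 1, 2 and 3, and the control count 105 and 118 without control replicates 3 and 4. Without the 5 libraries that stood apart, 393 genes passed in knockout and 854 in control. Whether the genotypes differ in these totals was not tested. For single genes, Arntl at CT17 was 0.03, adjusted p = 0.98 in knockout and 0.68, adjusted p = 3.6e-05 in control as a log2 difference from the other times. Nr1d1 fell in both genotypes at CT17 (-1.52, adjusted p = 5.9e-04 in knockout, -3.01, adjusted p = 1.3e-13 in control). Fabp2 was -0.02, adjusted p = 0.99 in knockout and 0.63, adjusted p = 0.0045 in control. Bco1 was 0.72, adjusted p = 0.71 in knockout and 1.83, adjusted p = 7.5e-05 in control.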

How the data were processed

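Raw read counts per gene and library were deposited by the authors, 1 column a library and unscaled, and are the values analysed. Tools named, per the submitters' processing notes, were featureCounts 1.4.6, STAR 2.7.5c, DESeq2 1.22.0, Trimmomatic 0.39, FastQC 0.11.5 and SAMtools 1.3.1, with the mm10 genome. Per the labels' protocols RNA came from a NucleoSpin kit and libraries from a strand-marking TruSeq mRNA kit. The strand setting, the annotation release and the handling of multiply mapped reads were not given in the sources used here, so near-identical copies and overlapping genes are uncertain.

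Of 48 labelled libraries, 47 had a column, and 1 knockout library of CT9 was not analysed here. Names and positions came from a GENCODE annotation of mm10, which matched 54349 of 55401 gene IDs with their version and 792 without it. Counts were fitted in R 4.3.3 with edgeR 4.0.16 (quasi-likelihood, robust, TMM scaling) over all 47 libraries and 12 group means, with 35 residual degrees of freedom, after filterByExpr (minimum count 10, total 15) had kept 15646 genes. Contrasts were knockout minus control at CT17, this effect minus the mean effect at the other 5 times, and CT17 minus the other times within each genotype. P-values were adjusted by Benjamini-Hochberg over all genes, with a threshold of 0.05. CPM are counts per M (mega) after TMM scaling, and summed CPM of lists are per M of all counts. Within the CT17 groups no libraries agreed within sampling noise (chi-square per degree of freedom 3.60 to 11.7). Floors cover counting error alone, since PCR reads without identifiers are not separate molecules.

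Named genes were the clock genes, the 12 largest rises and 12 largest falls with no overlap and at least 5 CPM in the higher group (leaving out immunoglobulin segments, Gm and Rik symbols, which made up 3 of the higher and 13 of the lower calls), the genes whose effect differed from the other times, and per list the members with the smallest p and those that passed. Some genes that this rule names, and their results, are not reported here. Genes in the closing observations were chosen after their values were seen. The members and lists were chosen with earlier results of these data known. Alternatives were the 8 libraries alone, RLE and upper quartile scaling, no filter, leaving out the 5 libraries that stand apart or each CT17 library, a term for the run of library codes, and DESeq2 1.42.0. The scripts were tested on simulated counts.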

Additional observations from a re-analysis of the deposited data

Results flagged for a closer look

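In the 4 libraries of a group, 1 value stood apart from the others by Dixon's test in 12 of 252 groups (4.76%). The groups came from 126 genes, nearly all of them named here, and chance alone flags about 1 in 20 groups. In knockout the library apart was replicate 4 for Arntl (26.9 CPM, the others 31.4 to 31.9 CPM), replicate 3 for Ces1g (2.94 CPM, the others 1.88 to 1.89 CPM) and replicate 3 for Sult6b2 (8.99 CPM, the others 3.29 to 3.95 CPM). It was replicate 1 for Mroh7 (26.9 CPM, the others 43.0 to 45.2 CPM), replicate 2 for Sprr1a (3.45 CPM, the others 2.20 to 2.26 CPM), replicate 4 for Tcrg-C2 (1.88 CPM, the others 4.41 to 4.70 CPM) and replicate 2 for Trdc (1.88 CPM, the others 2.94 to 3.10 CPM). In control it was replicate 1 for Ciita (83.5 CPM, the others 34.8 to 38.6 CPM) and for Zbp1 (57.3 CPM, the others 29.1 to 33.6 CPM), and replicate 3 for Bhlhe41 (1.68 CPM, the others 0.663 to 0.831 CPM) and Ciart (1.05 CPM, the others 0.815 to 0.831 CPM). For Hlf control replicate 2 was low (12.8 CPM, the others 14.7 to 15.1 CPM).

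The knockout effect at CT17 differed from that at the other times, by edgeR's test of the difference, for 8 genes, 7 of which are described here. Their log2 differences were -2.23 for Ces1d, -0.88 for Kyat1, -1.21 for Nat8f5, -1.23 for Nfil3, -1.72 for Slc13a1, -1.55 for Slc6a3 and -3.03 for Sult6b2.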

How the results depend on the processing

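Of 126 genes followed through the alternatives, nearly all of them named in the text, 92 passed at CT17. Among these 92, 51 passed in all 15 alternatives, 56 passed when any 1 CT17 library was left out, and 0 changed sign. Of 34 that did not pass, 15 passed in some alternative. The number of genes called at CT17 was 558 with the 8 libraries alone, 196 with no filter and 835 without the 5 libraries that stand apart, and 191 to 265 when each CT17 library was left out in turn. Genes whose effect differed from the other times numbered 18 without those 5 libraries, 16 by DESeq2 and 3 to 18 with a library left out. Control CT17 against other control times gave 854 calls without the 5 libraries and 105 to 338 with a library left out. Knockout CT17 against other knockout times gave 31 calls with no filter, 393 without the 5 libraries, 121 by DESeq2 and 9 to 58 with a library left out. The cause was not tested, beyond the fewer samples or the other genes each setting leaves. The sign of 2 genes that did not pass changed with the library left out, Bhlhe41 (0.03) ranging from -0.16 to 0.37 and Rora (0.19) from -0.031 to 0.38 on the log2 scale. RLE scaling, upper quartile scaling and the term for library codes kept each of these 4 counts within 1.5 times. No paired analysis was possible because replicate numbers were given in accession order and pair no libraries. At these depths genes near 1 CPM rest on a few counts, which limits statements on Bhlhe41, Ciart, Cd8b1 and the control levels of the rises.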

Other observations

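Further genes that passed at CT17, chosen after their values were seen, fell into a few families, which were picked for their calls, so their counts are a description only. Of all genes tested 1.41% fell and 0.684% rose. Constant regions of the T cell receptor fell in 6 of 7 measured genes (median log2 fold change -1.45), among them Trbc1 (log2 fold change -1.60, SE 0.34, adjusted p = 0.0034), Trdc (log2 fold change -1.50, SE 0.34, adjusted p = 0.0092), Tcrg-C1 (log2 fold change -1.10, SE 0.22, adjusted p = 0.0024), Tcrg-C2 (-1.43, adjusted p = 0.0081), Tcrg-C4 (-1.45, adjusted p = 0.018) and Trac (-1.48, adjusted p = 0.036), so alpha, beta, gamma and delta chains were all represented. The calls of Trbc1 and Tcrg-C1 held in all 15 alternatives, that of Trdc ended without knockout replicate 2, that of Tcrg-C2 without knockout replicate 4 or control replicate 1, that of Tcrg-C4 without knockout replicates 2 or 3 or control replicates 1 or 3, and that of Trac without any 1 of knockout replicates 1 to 4 or control replicates 1 and 3. Of 8 Gimap genes, small GTPases of lymphocytes, 4 fell, the clearest being Gimap4 at 18.2, 16.9, 14.7 and 13.9 CPM in knockout libraries, against 39.9, 24.9, 30.6 and 27.4 CPM in control libraries (log2 fold change -0.95, SE 0.19, adjusted p = 0.0015). Of 9 oligoadenylate synthetase genes 5 fell, with Oas3 at 16.4, 13.3, 18.9 and 17.3 CPM in knockout libraries, against 53.5, 45.7, 70.3 and 53.6 CPM in control libraries (log2 fold change -1.76, SE 0.33, adjusted p = 0.0011). Oas1g, of the Oas1 group, had 7.33 ± 1.18 CPM in knockout libraries and 17.4 ± 2.95 CPM in control libraries. Its call ended without any 1 of 7 of the CT17 libraries (all but control replicate 2) and with no filter on low counts.

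Enzymes and receptors known from the gut epithelium made up a second set, also chosen after their values were seen. Mme, the brush border peptidase neprilysin, had 624, 559, 656 and 469 CPM in knockout libraries, against 1279, 1381, 1563 and 1679.8 CPM in control libraries (log2 fold change -1.35, SE 0.22, adjusted p = 7.9e-05), with no overlap. Ace, another brush border peptidase, had 1396 ± 121 CPM in knockout libraries and 2239 ± 549 CPM in control libraries (log2 fold change -0.68, SE 0.16, adjusted p = 0.015), and its call ended without knockout replicates 1 or 4 or control replicates 3 or 4. Cubn, the receptor that takes up the intrinsic factor and vitamin B12 complex, had 192, 314, 201 and 222 CPM in knockout libraries, against 468, 711, 788 and 938 CPM in control libraries (log2 fold change -1.64, SE 0.34, adjusted p = 0.0032). In the NAD pathway Nampt, the rate-limiting enzyme of salvage, had 91.2, 92.1, 87.4 and 81.3 CPM in knockout libraries, against 154, 146, 152 and 159 CPM in control libraries (log2 fold change -0.79, SE 0.16, adjusted p = 0.0026), and its spread within each group was small. Nmrk1, which phosphorylates nicotinamide riboside, fell too (log2 fold change -1.04, SE 0.21, adjusted p = 0.0020). Nmnat3, which makes NAD from its mononucleotide, passed in the opposite direction, with 24.6, 17.6, 26.8 and 29.0 CPM in knockout libraries, against 13.1, 19.6, 19.9 and 13.7 CPM in control libraries (log2 fold change 0.56, SE 0.16, adjusted p = 0.048). Its groups overlapped, and its call ended without any 1 of knockout replicates 1, 3 and 4 or control replicates 1 and 4, with the 8 libraries alone, under RLE or upper quartile scaling and with no filter on low counts. Adh1, an alcohol and retinol dehydrogenase, had 196, 214, 258 and 314 CPM in knockout libraries, against 301, 515, 877 and 738 CPM in control libraries (log2 fold change -1.31, SE 0.26, adjusted p = 0.0023), and its call ended with the 8 libraries alone. Vnn1, which makes pantothenate and cysteamine, rose, with 267, 279, 253 and 259 CPM in knockout libraries, against 105, 139, 115 and 143 CPM in control libraries (log2 fold change 1.07, SE 0.14, adjusted p = 2.0e-06). Nat8 (log2 fold change -1.23, adjusted p = 2.6e-04) and Nat8f6 (-2.25, adjusted p = 0.0036) fell beside Nat8f5. In the Akr1c family 2 of 4 fell, Akr1c19 at 40.8, 67.0, 70.7 and 61.1 CPM in knockout libraries, against 74.0, 119.7, 353 and 226 CPM in control libraries (log2 fold change -1.69, SE 0.34, adjusted p = 0.0026) with control replicate 3 the highest, and Akr1c12 at 74.7 ± 8.77 CPM in knockout libraries and 123 ± 30.6 CPM in control libraries. The call of Akr1c19 ended with the 8 libraries alone, and that of Akr1c12 without knockout replicates 1 or 2 or control replicates 3 or 4. Among 7 Ces2 carboxylesterases, neighbours in name of the Ces1 genes that fell, 1 rose, Ces2g at 134, 127, 140.2 and 119.6 CPM in knockout libraries, against 36.9, 40.6, 87.3 and 68.9 CPM in control libraries (log2 fold change 1.16, SE 0.22, adjusted p = 8.6e-04), and its call ended with the 8 libraries alone.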
